A study of Mus musculus with 12 samples.

Results

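Interferon-stimulated genes were followed through 12 arrays of whole mouse cornea as a list of 37 genes, divided into 25 that are mainly induced by type I interferon and 12 that are mainly induced by interferon gamma, although many respond to both. A gene counted as measured where at least 1 probe set carried its symbol and no other, and its brightest probe set by mean over the arrays stood for it. By this rule 35 of the 37 were measured, out of 18194 genes on the arrays, and they comprise 23 type I members and 12 gamma members. Ifi44 carried no named probe set and Isg15 carried only one shared with other symbols, so neither was analysed here. Mx2 and Cxcl9 were too dim for the test, which left 33 members, 22 of type I and 11 of gamma, among 12711 genes tested.

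Each array held total RNA from dissected whole corneas of C57BL/6J mice. Intact corneas came from wild-type mice (WT), from ApoE-/- mice, which lack apolipoprotein E, from Dscr-1-/- mice, which lack the calcineurin inhibitor now named Rcan1, and from mice null for both genes (double null), with 2 arrays per genotype labelled as biological replicates. Sutured corneas, in which a stitch provokes inflammation and vessel growth, were measured on 1 array each from WT on day 5 and day 7, from Dscr-1-/- on day 5, and from Dscr-1 Tg, a transgenic line, on day 7. The labels do not give the promoter of the transgene, the age or sex of the mice, or how many corneas entered a sample, and the p-values measure only the spread between these samples.

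Interferons are secreted proteins, and those of type I are released by cells on sensing foreign or misplaced nucleic acid. Type I interferons signal through the receptor chains Ifnar1 and Ifnar2 to a complex that holds Stat2 and Irf9 and binds the interferon-stimulated response element (ISRE), while interferon gamma signals through Ifngr1 and Ifngr2 and acts at the gamma-activated site (GAS). The genes switched on include sensors and antiviral effectors, GTPases that attack the vacuoles of intracellular microbes, the immunoproteasome that cuts peptides for MHC class I, and chemokines that draw in T cells. In the cornea both the surface epithelium and resident or recruited leukocytes can respond to interferon.

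The binding sites are part of what defines this gene list, so the 250 bases before the start of each gene were searched for them on both strands, as RefSeq gives them on GRCm38.p6. Windows were available for 27 of the 37 genes. The ISRE letters (GAAA, any 2 bases, GAAA) were found for 11 of these 27 genes (40.741%), against 3.463% of 27025 genes, with 6 of 16 type I members and 5 of 11 gamma members among them. The GAS letters (TTC, any 3 bases, GAA) were found for 5 of 27 (18.519%), against 8.13% of genes. The kappa B letters (GGGA, any base, TTTCC), a site of inflammatory NF-kappa B factors, were found for 0 of 27, against 0.414%. Matches overlap each other in Bst2, Gbp3, Irgm1 and Isg15, and a match marks letters only. For 6 roles in the response the window of 1 member with a match is shown, with the first of 2 windows for Irf1. Ifit1 stands for the RNA-binding effectors because it was called in a comparison below, although Ifit3 was brighter and also held 2 ISRE matches. They are, in order, a signal carrier, a transcription factor, an RNA-binding effector, a GTPase, an immunoproteasome subunit and a chemokine. Each is read 5′ to 3′ on the strand of its gene, with matches to the ISRE or GAS letters, or to the ISRE letters of the opposite strand, in capitals.
Stat2 (chr10:128270248-128270497, plus strand): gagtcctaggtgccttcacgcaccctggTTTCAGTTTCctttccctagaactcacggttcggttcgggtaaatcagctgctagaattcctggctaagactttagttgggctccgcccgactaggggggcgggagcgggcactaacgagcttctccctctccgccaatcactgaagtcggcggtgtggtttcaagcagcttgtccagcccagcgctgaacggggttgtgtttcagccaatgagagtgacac
Irf1 (chr11:53769764-53770013, plus strand): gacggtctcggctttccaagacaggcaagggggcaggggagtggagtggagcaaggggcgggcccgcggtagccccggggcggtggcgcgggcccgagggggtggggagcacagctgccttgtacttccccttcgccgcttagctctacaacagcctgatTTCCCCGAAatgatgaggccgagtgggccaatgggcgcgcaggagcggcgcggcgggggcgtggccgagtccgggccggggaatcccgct
Ifit1 (chr19:34640639-34640888, plus strand): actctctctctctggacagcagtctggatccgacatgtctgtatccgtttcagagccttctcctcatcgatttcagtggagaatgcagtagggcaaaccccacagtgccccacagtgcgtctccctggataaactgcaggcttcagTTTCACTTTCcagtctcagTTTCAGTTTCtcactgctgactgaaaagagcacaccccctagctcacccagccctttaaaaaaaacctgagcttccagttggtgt
Gbp2 (chr3:142620413-142620662, plus strand): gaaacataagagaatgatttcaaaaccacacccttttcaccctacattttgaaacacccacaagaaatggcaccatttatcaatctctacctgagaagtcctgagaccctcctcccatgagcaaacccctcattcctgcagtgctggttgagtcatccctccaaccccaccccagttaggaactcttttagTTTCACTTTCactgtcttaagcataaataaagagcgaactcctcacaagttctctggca
Psmb8 (chr17:34197945-34198194, plus strand): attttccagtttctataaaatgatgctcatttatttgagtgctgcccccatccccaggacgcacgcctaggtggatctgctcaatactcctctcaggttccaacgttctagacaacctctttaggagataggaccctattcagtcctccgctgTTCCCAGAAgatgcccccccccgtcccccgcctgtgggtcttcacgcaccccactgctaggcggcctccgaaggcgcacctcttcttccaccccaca
Cxcl10 (chr5:92348890-92349139, minus strand): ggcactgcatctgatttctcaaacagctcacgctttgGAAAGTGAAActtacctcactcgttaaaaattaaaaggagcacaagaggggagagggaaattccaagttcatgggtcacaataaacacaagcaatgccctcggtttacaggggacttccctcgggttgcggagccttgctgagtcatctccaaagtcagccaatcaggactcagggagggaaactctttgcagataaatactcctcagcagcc

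Ifit1 holds 2 ISRE matches, 104 and 85 bases before its start, and the Stat2 match lies 222 bases, the Gbp2 match 59 bases and the Cxcl10 match 213 bases before the start of their genes. Irf1 and Psmb8 hold no ISRE match in these windows and 1 GAS match each, 90 and 97 bases before the start.

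Several arrays did not match their labels or carried RNA of other tissue, which bears on each comparison. Apoe read 849.3 on ApoE-/- replicate 1 and 7.5 on replicate 2, against 776.5 and 1030.5 in WT. The second Dscr-1-/- array is called Dscr-1-/- in its title and genotype but ApoE-/- in its source and description, and its Apoe value was 316.8 against 1272 on the first. Rcan1 lay between 331.7 and 477.5 on the 4 arrays labelled Dscr-1 null and between 581.3 and 668.2 on the other intact arrays, and whether its probe set covers the deleted part is not stated. On the sutured arrays it read 663.6 in WT on day 5, 579.7 in WT on day 7, 479.1 in Dscr-1-/- and 548.3 in Dscr-1 Tg, so that the array labelled transgenic did not read above the WT array of its day. Xist, transcribed from the inactive X of females, read at least 4104 on both ApoE-/- arrays, both Dscr-1-/- arrays and double null replicate 1, and 19.6 or less on the rest. Double null replicate 1 also held photoreceptor transcripts, summing to 3631.5 over 6 of 7 markers measured, against 290 or less elsewhere. Corneal epithelium markers were bright on every array, with all 8 of 8 measured and a summed intensity between 30062.1 and 46070.6. Below, ApoE-/- replicate 1 and Dscr-1-/- replicate 2 are called the arrays of doubtful Apoe level, and counts of called genes are also given without them.

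Interferon-stimulated genes were read in intact WT cornea at levels that were close on its 2 arrays. The values are probe-set intensities that the authors scaled to a common level on each array, and differences are on the scale log2(intensity + 3.6), which understates the change of dim genes. Between the WT replicates the median member differed by 0.01 log2 units, with 17 members higher on the second array and 16 lower, against a median of -0.01 over all genes tested. Irf1, a transcription factor induced chiefly by gamma, read 1314.9 and 1166.2. Psmb8, a catalytic immunoproteasome subunit, read 586.9 and 565.8, and Rtp4, a type I-induced receptor chaperone, read 151.4 and 152.5. Both arrays were close for all 3. Rsad2 (viperin), an antiviral radical-SAM enzyme, read 19 and 20.6, and Mx1, a GTPase that traps viral nucleoproteins, read 6.9 and 8.4. Oas2 and Gbp3 were the members on which the WT arrays were more than 1 log2 unit apart, with 22.3 and 7.8 for Oas2, a synthetase of 2',5'-oligoadenylate, and 54 and 22.4 for Gbp3.

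**Figure D1:**
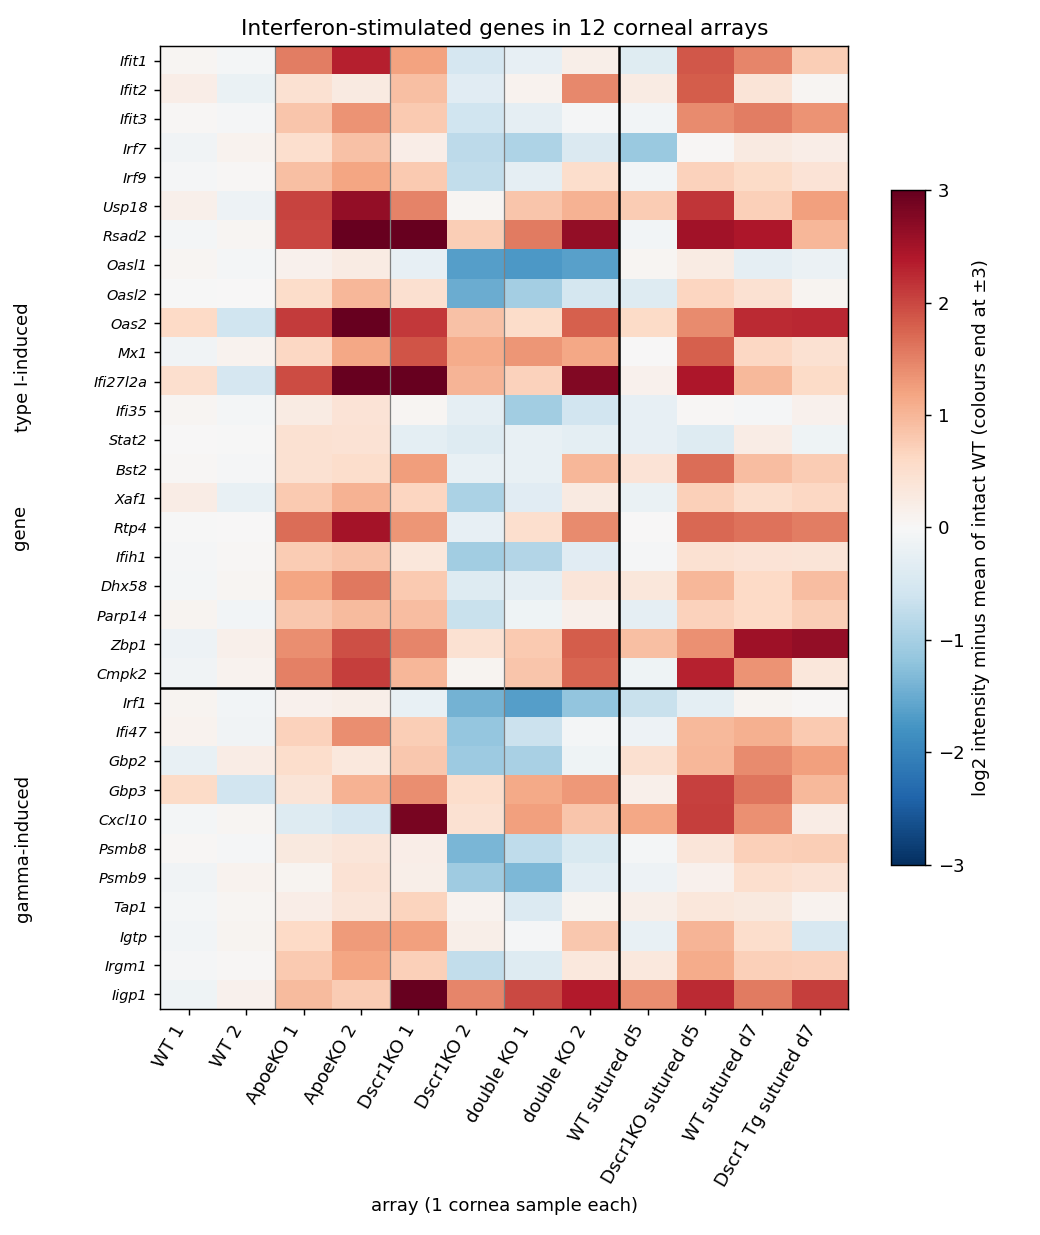
Heat map of the 33 tested members (rows, type I-induced above the line and gamma-induced below) on the 12 arrays (columns), as log2 intensity minus the mean of the 2 intact WT arrays. Both ApoE-/- columns and Dscr-1-/- replicate 1 are mostly red, while Dscr-1-/- replicate 2 is mostly blue, with a median of -0.38.

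In intact ApoE-/- cornea nearly the whole list was read higher than in WT, but no member passed the test across all genes. The difference was positive for 32 of 33 members (47.7% of all genes), for all 22 type I members and for 10 of 11 gamma members, with Cxcl10 the exception. The median difference was 0.98 for type I members and 0.43 for gamma members, beside -0.01 over all genes tested. Both ApoE-/- arrays lay above both WT arrays for 30 of 33 members, against 21.1% of all genes, and for 22 of 22 type I members against 8 of 11 gamma members. The limma fit over the 4 intact genotypes called 0 members at an adjusted p of 0.05, where it called 0.0236% of all genes. At an unadjusted p under 0.05 there were 11 members (33.3%), all higher, against 3.75% of genes.

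Signal carriers and transcription factors of the type I response were among the members whose groups did not overlap. Irf9, the DNA-binding part of the Stat complex, read 197 and 237.9 in ApoE-/- against 100.4 and 105.9 in WT, a log2 difference of 1.04 ± 0.47 (SE, n = 2 per group). Irf7, which amplifies type I interferon production, read 122.7 and 158.4 against 78.5 and 92.3. Stat2 read 26.9 and 26.6 against 18.9 and 18.3. Both knockout arrays exceeded both WT arrays for each of these, and the pairs of values within a genotype were close. Irf1 read 1348.5 and 1391.1 against 1314.9 and 1166.2, a difference of 0.14 ± 0.35, which was within its standard error.

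Sensors of foreign nucleic acid showed the same order. Ifih1 (MDA5), which detects long double-stranded RNA, read 718.1 and 772.1 in ApoE-/- against 414 and 432.7 in WT. Dhx58 (LGP2), its regulator, read 67.9 and 90.2 against 26.3 and 29.2, and Zbp1, a sensor of Z-form nucleic acid, read 38.6 and 57.7 against 10.9 and 14.4. The lower ApoE-/- array exceeded the higher WT array for each sensor.

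The 3 members with the lowest p were a feedback regulator, an antiviral enzyme and a nucleotide kinase. Usp18, the protease that removes Isg15 from proteins and dampens the type I receptor, read 172.9 and 269.3 in ApoE-/- against 45.2 and 35.3 in WT. Its log2 difference of 2.33 ± 0.45 had an adjusted p of 0.347 and the lowest p of the list. Oas2 read 69.8 and 133.3 against 22.3 and 7.8, a difference of 2.54 ± 0.62 (adjusted p = 0.603). Cmpk2, a mitochondrial nucleotide kinase induced with Rsad2, read 36 and 54.8 against 9.4 and 11.4, a difference of 1.78 ± 0.45 (adjusted p = 0.609). Each of these 3 had an unadjusted p under 0.05 and none passed the adjustment.

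The Ifit genes, whose proteins bind foreign RNA ends and block its translation, differed in the size of the gap. Ifit1 read 304.2 and 531.6 in ApoE-/- against 107.6 and 97.3 in WT, and Ifit3 read 343.3 and 488.6 against 196.5 and 184.7. Ifit2 read 85.9 and 74.3 against 70.4 and 53, so that its lower knockout array was just above the higher WT array. Rsad2 read 89.6 and 196.6 against 19 and 20.6, Rtp4 read 490 and 870.7 against 151.4 and 152.5, and Ifi27l2a, a small mitochondrial interferon-induced protein, read 201.3 and 588.5 against 71.2 and 34. Of these, Ifi27l2a had the widest spread within genotypes, with a difference of 2.72 ± 0.92. Smaller differences were seen for Oasl1, which inhibits translation of Irf7, with 508 and 549.6 against 478.8 and 446.7, and for Ifi35, with 2201.7 and 2461 against 1949.1 and 1784.7.

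Gamma members ranged from groups that did not overlap to groups that did. The immunity-related GTPases Igtp, Irgm1 and Ifi47 lay higher on both ApoE-/- arrays, with 87.6 and 142.4 against 53.2 and 60.3 for Igtp, 170.2 and 224.9 against 94.1 and 99 for Irgm1, and 415.8 and 677 against 274.5 and 240.2 for Ifi47. Antigen-processing members lay closer to WT. Psmb8 read 705.1 and 745.1 against 586.9 and 565.8, and Tap1, a subunit of the peptide transporter, read 156.3 and 175.9 against 129 and 141.8. Cxcl10, the chemokine that draws activated T cells, read 2.3 and 1.8 against 3.8 and 4.4, at or below the pseudocount on both knockout arrays. The groups overlapped for Psmb9, with 215.8 and 274.1 against 188.8 and 219, and for Gbp3, with 47.3 and 76.6 against 54 and 22.4.

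The size of the call in ApoE-/- depended on which arrays set the spread. When the 4 arrays of ApoE-/- and WT were fitted alone, 16 of 33 members were called higher, with 203 genes (1.6%) called in all. Usp18 (adjusted p = 0.00256), Rtp4 (0.00525), Ifih1 and Ifit1 (0.00754 each), Irf9 and Rsad2 (0.0101 each) had the lowest adjusted p in that fit, and 15 of the 16 were type I members, Irgm1 being the gamma member. The differences themselves are the same in both fits. Leaving out either Dscr-1-/- array from the joint fit gave 1 call, Usp18 (adjusted p = 0.0434 without replicate 1 and 0.0432 without replicate 2), and leaving out any other single intact array, or both arrays of doubtful Apoe level, gave 0.

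Other features of the ApoE-/- arrays moved with this comparison. Both carried Xist and neither WT array did, so that genotype and Xist status cannot be told apart here. Macrophage markers, all 10 of 10 measured, summed to 1056.5 and 544 in ApoE-/- against 388 and 375 in WT, and neutrophil markers, 8 of 10 measured, summed to 296 and 134 against 231 and 148. Lens markers, all 7 of 7 measured, summed to 463 and 104 against 7398.7 and 5372.5. In bulk cornea fewer cells of a type and less RNA per cell cannot be told apart. The part of any of these in the interferon-stimulated differences was not tested. The array with the higher member levels, ApoE-/- replicate 2, had the lower macrophage sum. The other array, on which Apoe itself was read at the WT level, had a median member difference from WT of 0.69, against 1.04 on replicate 2.

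**Figure D2:**
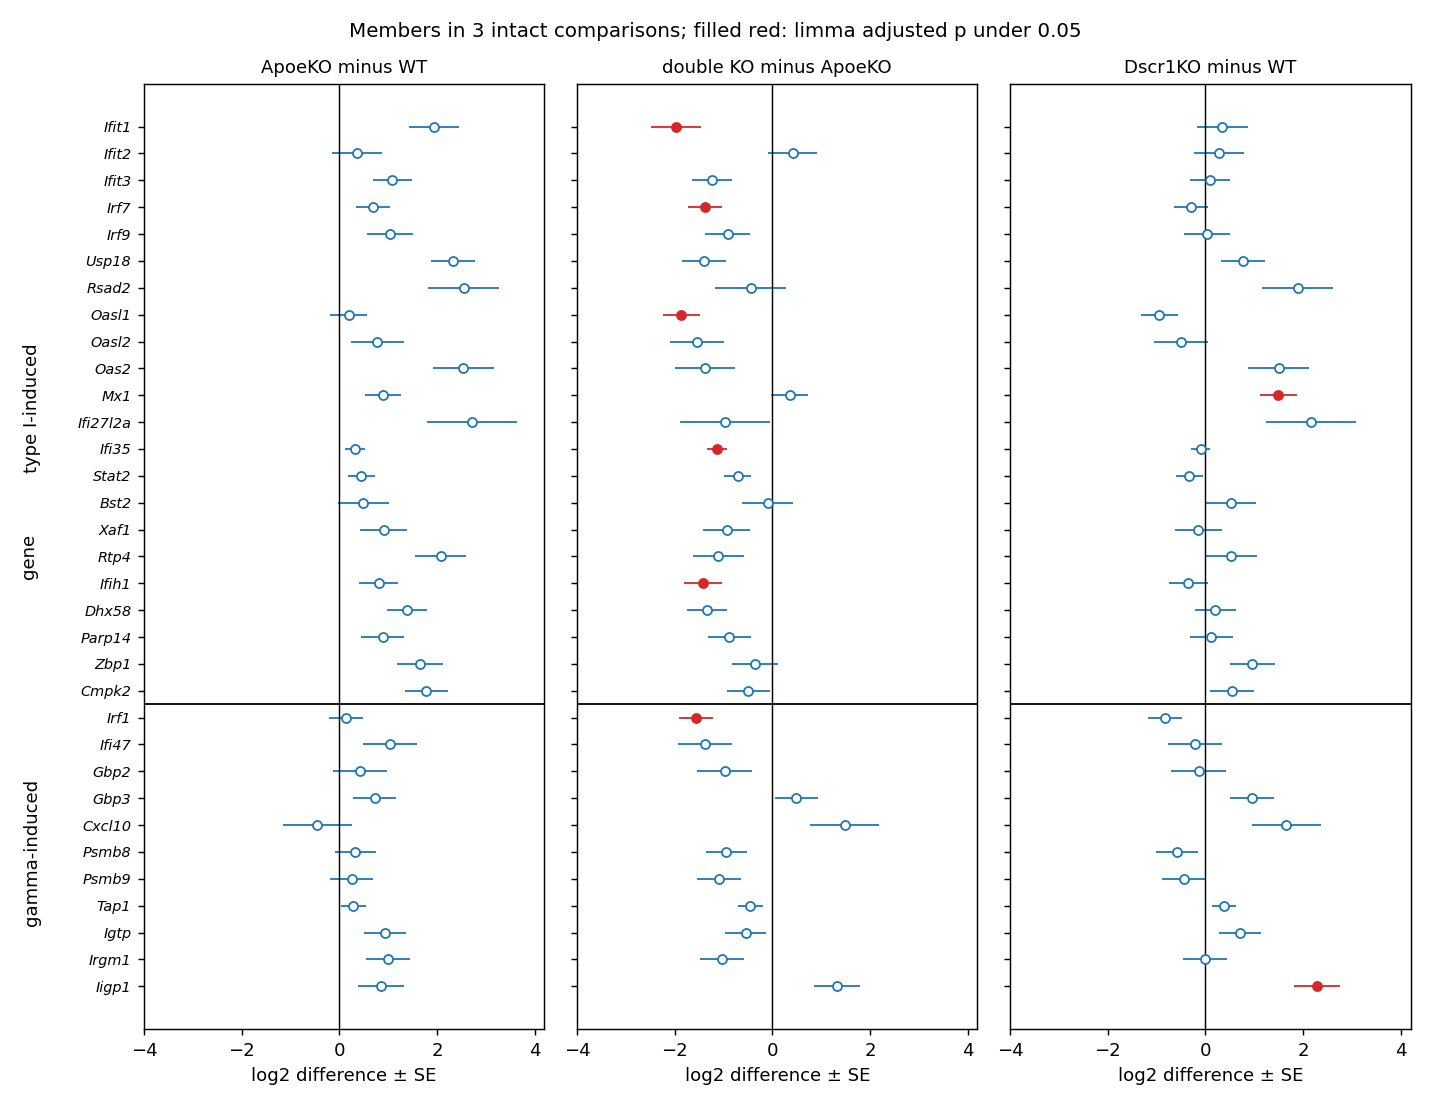
Log2 difference ± SE of the 33 tested members in ApoE-/- minus WT, double null minus ApoE-/-, and Dscr-1-/- minus WT (n = 2 arrays per group, limma fit over 8 intact arrays), with members at an adjusted p under 0.05 filled red. In the first panel 32 of 33 points lie to the right of 0 with none filled, in the middle panel 28 lie to the left with 6 filled, and in the last 2 are filled.

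The 2 intact Dscr-1-/- arrays disagreed on interferon-stimulated genes more than any other replicate pair. Replicate 2 was lower than replicate 1 for 33 of 33 members, against 55.1% of all genes. It was more than 1 log2 unit lower for 26 of 33 (78.8%), against 8.1% of all genes. The median gap was -1.40 over the members and -0.07 over all genes. Ifit1 read 240.1 and then 70.8, Usp18 118.8 and 41.5, Ifih1 533.3 and 204.4, Gbp2 446.8 and 118, and Psmb8 660 and 220.4. For Ifit1, Ifih1, Gbp2 and Psmb8 the 2 WT arrays lay between the Dscr-1-/- arrays.

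Taken against the WT mean, the median member was 0.81 higher on Dscr-1-/- replicate 1 and 0.38 lower on replicate 2, where 15 of the 33 members had their lowest value of the 12 arrays. The double null arrays were also apart, with replicate 2 higher for 30 of 33 members and a median gap of 0.56. The ApoE-/- arrays differed by a median of 0.36, with replicate 2 higher for 28 members. In the ApoE-/- and double null pairs the sign was shared by most members, as it was in the Dscr-1-/- pair.

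Some leukocyte markers ran in the order of the interferon-stimulated genes within these pairs. Macrophage markers summed to 5875.3 and 3098.9 on the Dscr-1-/- arrays and to 3387.2 and 5927.2 on the double null arrays, so that in both pairs the array with the higher members had the higher macrophage sum. Neutrophil marker sums, 8718 and 19761.7 in Dscr-1-/- and 10932.4 and 15793.3 in double null, came mostly from S100a8 and S100a9. In Dscr-1-/- these 2 and Mmp9 (152.5 and 187.1) ran in the opposite order to the members. Csf3r (265.6 and 173.4), Cxcr2 (44.6 and 21), Mmp8 (38.1 and 33.3), Ngp and Camp ran in the same order there. In double null S100a8, S100a9, Csf3r, Cxcr2 and Mmp9 ran in the order of the members, and Mmp8, Ngp and Camp in the opposite order. All 4 arrays were far above WT for both lists, including Dscr-1-/- replicate 2, which had the lowest gamma member median (-0.74) of the 12 arrays. T and NK cell markers, 12 of 14 measured and 3 bright enough to test, summed to 289 and 158 in Dscr-1-/- and to 126 and 223 in double null, against 49.3 and 53.9 in WT. The sums ran in the order of the members, as Cd3d, Cd3e, Cd3g, Klrd1 and Nkg7 did in both pairs. Cd4, Cd8a, Ncr1, Gzmb and Prf1 ran in the opposite order in Dscr-1-/-, and Cd8b1, Gzma, Gzmb and Prf1 in double null. Of the 3 tested, Klrd1 ran with the members in both pairs, Cd8a only in double null and Prf1 in neither. Markers of plasmacytoid dendritic cells, the specialised producers of type I interferon, all 5 of 5 measured and 3 bright enough to test, summed to 203 and 139 and to 169 and 192, against 98 and 94 in WT. Bst2 is 1 of these markers and also a type I member, and it read 115.7 and 38.8 in Dscr-1-/- and 39.3 and 96 in double null. The order of these sums is thus not separate from that of the members. Ccr9 read 39.6, 70.7, 95.1 and 60 on the 4 arrays null for Dscr-1 against 32.5 and 38.7 in WT. Within both pairs its order was opposite to that of the members. Siglech, which defines these cells, lay between 1.4 and 13.9 on all arrays, and Spib and Cox6a2 at 21 or less. The part of any of these in the differences was not tested.

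**Figure D3:**
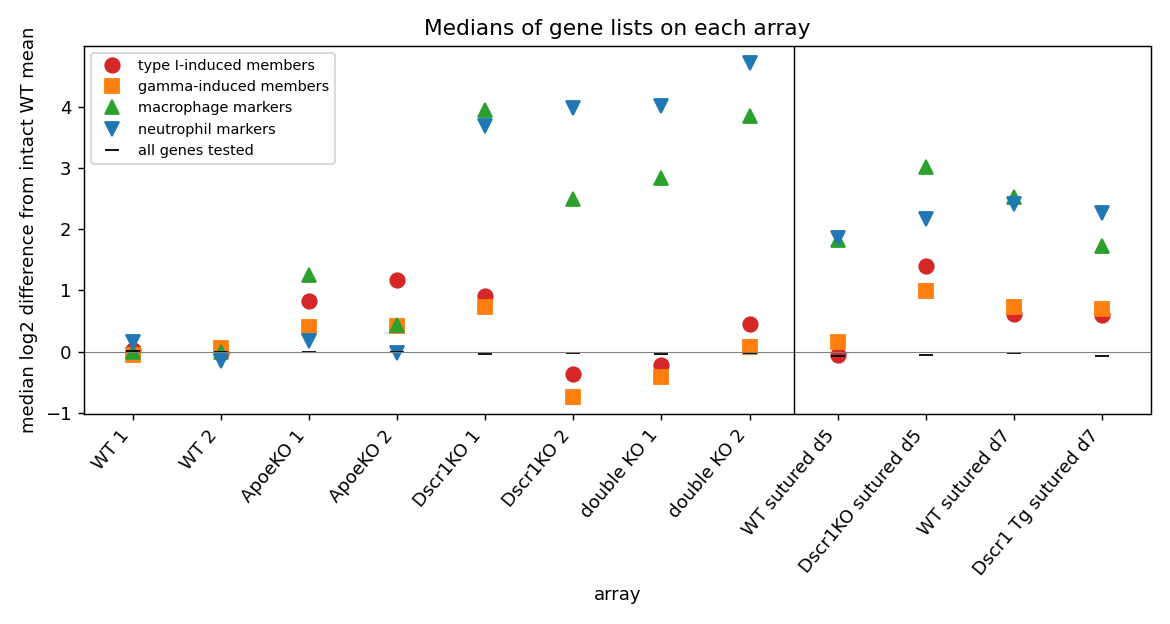
Median log2 difference from the intact WT mean on each of the 12 arrays for type I members, gamma members, macrophage markers, neutrophil markers and all genes tested (vertical axis, log2 units). The ApoE-/- arrays combine type I medians of 0.83 and 1.17 with neutrophil medians near 0, while Dscr-1-/- replicate 2 combines a neutrophil median of 3.98 with a type I median of -0.36.

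Against WT, the Dscr-1-/- arrays gave 2 called members, both higher, where 11.7% of all genes were called and 7.78% were called higher. Iigp1 (Irga6), a gamma-induced GTPase that coats parasite vacuoles, read 217.1 and 68 in Dscr-1-/- against 20.1 and 24.8 in WT, a log2 difference of 2.28 ± 0.47 (adjusted p = 0.0221). Its other probe set differed in the same direction. Mx1 read 37.8 and 20.6 against 6.9 and 8.4, a difference of 1.50 ± 0.37 (adjusted p = 0.0407). Rsad2, with 188.9 and 35.5 against 19 and 20.6, was next and did not pass (1.89 ± 0.72, adjusted p = 0.13). For all 3 both Dscr-1-/- arrays exceeded both WT arrays, although they differed from each other.

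This count rested on single arrays. Without Dscr-1-/- replicate 1, 8 members were called, where 30.3% of all genes were, and of the 8 members 7 were lower, among them Oasl1 (-1.64), Psmb8 (-1.37) and Irf1 (-1.42), and Iigp1 was higher. Without Dscr-1-/- replicate 2, 6 were called, where 8.61% of all genes were, and all 6 were higher, among them Rsad2 (3.04), Iigp1 (3.09) and Cxcl10 (2.85). In each of these fits the remaining Dscr-1-/- array is assumed to vary like the other groups. Parp14 was called in both, lower without replicate 1 (-0.67, adjusted p = 0.0416) and higher without replicate 2 (0.92, adjusted p = 0.0336). Without either WT array 0 were called, without any 1 of the ApoE-/- or double null arrays 1 was called, and without both arrays of doubtful Apoe level 4 were called (5.51% of all genes). Fewer of all genes were also called without either WT array or either ApoE-/- array, but not without a double null array. Each of these fits leaves 1 array in a genotype. Both Dscr-1-/- arrays carried Xist and the WT arrays did not, which cannot be told apart from the genotype.

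Most interferon-stimulated genes read lower in corneas null for both genes than in ApoE-/-, although few passed the test. This comparison uses the same ApoE-/- arrays as the one against WT. Of 33 members 28 were lower in double null than in ApoE-/- and 5 were higher, where 50.1% of all genes were higher, with a median difference of -1.04 for type I members and -0.94 for gamma members, beside 0.00 over all genes. Both double null arrays lay below both ApoE-/- arrays for 22 of 33 members, against 33.5% of all genes. The test called 6 members lower and 0 higher, where 8.6% of all genes were called lower and 19.5% either way. The share of members called, 18.2%, was thus close to the share of all genes called in either direction.

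The 6 called members came from several roles. Ifi35, an interferon-induced leucine zipper protein, read 897.7 and 1244 in double null against 2201.7 and 2461 in ApoE-/-, a difference of -1.14 ± 0.20 (adjusted p = 0.00843), and its other 2 probe sets differed in the same direction. Oasl1 read 136.5 and 147.9 against 508 and 549.6, a difference of -1.87 ± 0.38 (adjusted p = 0.014). Irf1 read 391.2 and 544.9 against 1348.5 and 1391.1, a difference of -1.56 ± 0.35 (adjusted p = 0.0202). For these 3 the double null arrays also lay below both WT arrays.

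Irf7, Ifit1 and Ifih1 were the other called members. Irf7 read 42.8 and 61.8 in double null against 122.7 and 158.4 in ApoE-/- (-1.38 ± 0.35, adjusted p = 0.0309). Ifit1 read 85.3 and 115.3 against 304.2 and 531.6 (-1.98 ± 0.51, adjusted p = 0.0334), and Ifih1 read 226.7 and 335.7 against 718.1 and 772.1 (-1.42 ± 0.40, adjusted p = 0.0425). The Ifit1 values of double null lay on either side of the WT values of 107.6 and 97.3, whereas Irf7 and Ifih1 were lower than on either WT array. Usp18, with 73.5 and 86.3 against 172.9 and 269.3, had an adjusted p of 0.0649. Iigp1 ran the other way, with 99.3 and 131.8 against 46.3 and 40.4 (1.33 ± 0.47, adjusted p = 0.0865).

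Several effectors were not called. Rsad2 read 65.8 and 141.7 in double null against 89.6 and 196.6 in ApoE-/- (-0.44 ± 0.72), Mx1 read 24.6 and 21.5 against 13.7 and 21.5, and Zbp1 read 24.2 and 53 against 38.6 and 57.7. The groups overlapped or touched for all 3, and none passed the test. Both double null arrays were above both WT arrays for each of them, and for Usp18 and Cmpk2 as well.

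The number of members called between double null and ApoE-/- ranged from 0 to 20 as single arrays were left out. It was 0 without either ApoE-/- array (6.24% and 4.06% of all genes called), 1 without double null replicate 1 (10.4%) and 3 without either WT array (12.2% and 12.3%). It was 20 without either Dscr-1-/- array, where 30.8% and 30.7% of all genes were called. It was 15 without both arrays of doubtful Apoe level (15.3% of all genes) and 14 when these 2 genotypes were fitted alone, with Iigp1 the one called higher in both of those fits. In the fit of these 2 genotypes alone 22% of all genes were called. Macrophage markers (544 to 1056.5 in ApoE-/-, 3387.2 to 5927.2 in double null) and neutrophil markers (134 to 296, 10932.4 to 15793.3) moved the opposite way to most members. The photoreceptor transcripts of double null replicate 1 are noted above. The part of these markers and transcripts in the result was not tested.

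**Figure D4:**
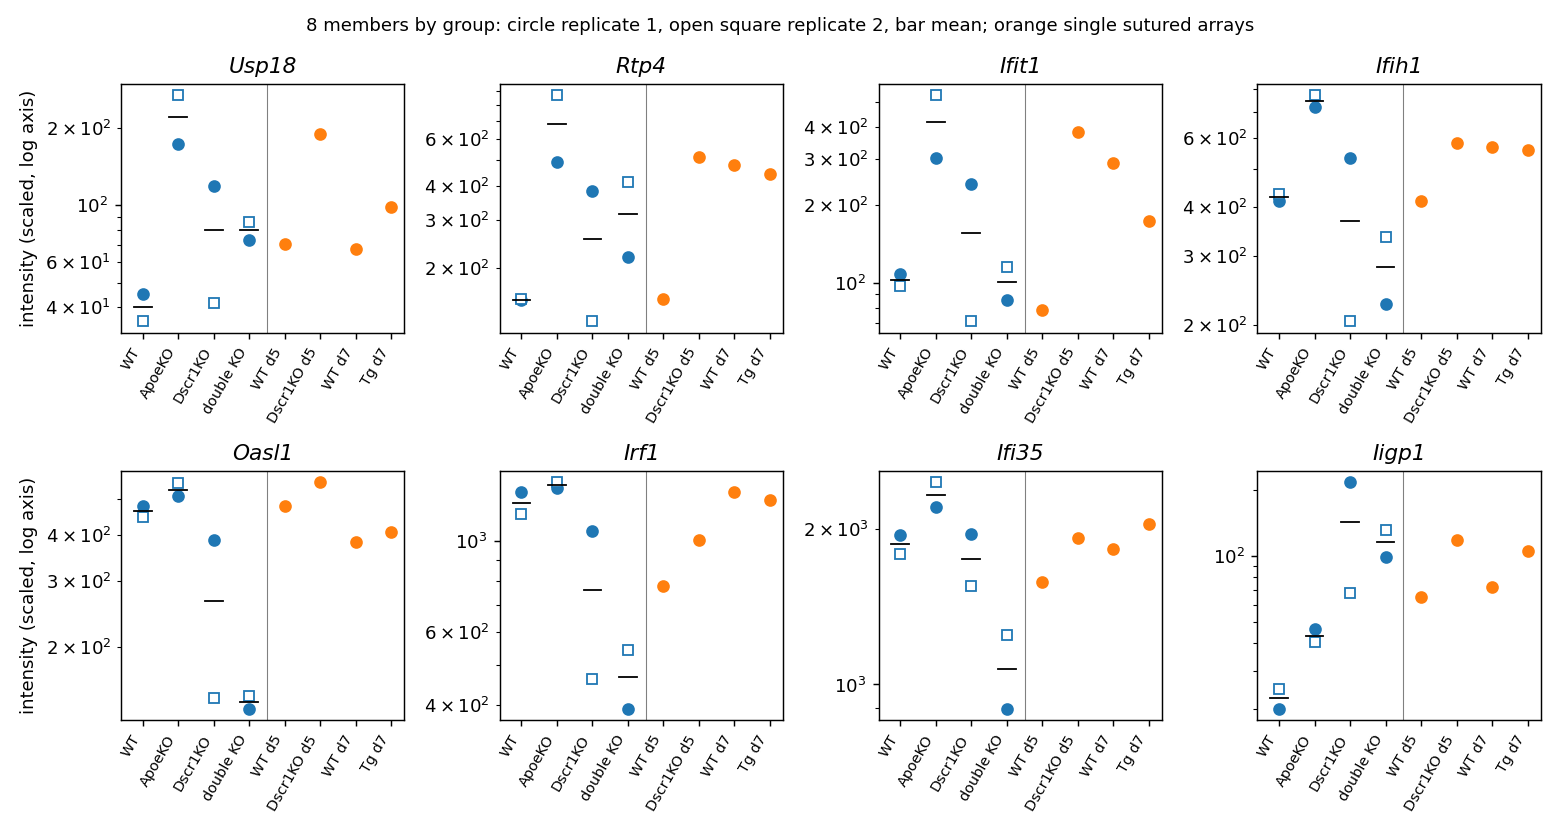
Intensities (log axis) of 8 members on the intact arrays (blue; circle replicate 1, open square replicate 2, bar the mean of both) and on the single sutured arrays (orange). Usp18, Rtp4, Ifit1 and Ifih1 are high on both ApoE-/- arrays, the Dscr-1-/- squares lie below their circles in all 8 panels, and Oasl1, Irf1 and Ifi35 are low on both double null arrays.

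Against WT the double null arrays gave 1 called member that was higher and 3 that were lower, where 11.3% of all genes were called higher and 8.7% lower. Iigp1 was higher by 2.19 ± 0.47 (adjusted p = 0.0164), from 20.1 and 24.8 in WT to 99.3 and 131.8. Oasl1 (-1.68 ± 0.38, adjusted p = 0.0194), Ifi35 (-0.82 ± 0.20, adjusted p = 0.0256) and Irf1 (-1.42 ± 0.35, adjusted p = 0.0269) were lower. The median member differed by 0.01. The calls were 0 without either WT array or double null replicate 1, and 2 without double null replicate 2 or either ApoE-/- array. They were 12 without either Dscr-1-/- array, where 31.1% of all genes were called, and 9 without both arrays of doubtful Apoe level (23.4%). Fewer of all genes were also called without any 1 of the WT, ApoE-/- or double null arrays, each of which leaves 1 array in a genotype. Adding Xist presence as a term is not a separate check, because Xist status varied within a genotype only in double null. In this contrast the term gives the difference of double null replicate 2 from WT, as leaving out replicate 1 does.

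Between double null and Dscr-1-/- the limma test called 0 members, where it called 0.0236% of all genes, and 1 member and 10.7% of genes had an unadjusted p under 0.05. That member, Ifi35, read 897.7 and 1244 in double null against 1951.8 and 1551.1 in Dscr-1-/- (-0.72 ± 0.20, adjusted p = 0.355). Tap1 (-0.55 ± 0.25, adjusted p = 0.495) and Oasl1 (-0.73 ± 0.38, adjusted p = 0.538) followed. The other 2 probe sets of Ifi35 differed in the same direction as its brightest. On 1 of them the groups overlapped, with 116.9 and 161.6 in double null against 247 and 97.1 in Dscr-1-/-. Without Dscr-1-/- replicate 2, which leaves 1 array in that genotype, the Oasl1 difference was -1.42. Without both arrays of doubtful Apoe level 0 members were called, with 0.165% of all genes called.

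Averaged over both Apoe labels, loss of Dscr1 was associated with 3 called members that were higher and 5 that were lower, 8 of 33 (24.2%) where 31.5% of all genes were called, 16.2% higher and 15.3% lower. The higher ones were Iigp1 (1.80 ± 0.33, adjusted p = 0.00587), Cxcl10 (1.57 ± 0.50, adjusted p = 0.0462) and Mx1 (0.92 ± 0.26, adjusted p = 0.0317). Cxcl10 read 51.8, 7, 14.5 and 10.1 on the 4 arrays null for Dscr-1 and between 1.8 and 4.4 on the other 4, so that the groups did not overlap. The lower ones were Oasl1 (-1.41 ± 0.27, adjusted p = 0.00657), Irf1 (-1.19 ± 0.25, adjusted p = 0.00945), Ifi35 (-0.62 ± 0.14, adjusted p = 0.0138), Irf7 (-0.84 ± 0.25, adjusted p = 0.0361) and Ifih1 (-0.89 ± 0.28, adjusted p = 0.0462). The highest Oasl1 value on an array null for Dscr-1 was 386.5, below the lowest of 446.7 on the other arrays. Calls of members thus went in both directions, as did those of all genes. In the same contrast 5 of 6 blood endothelium markers were called higher, with a median difference of 3.03. Of 4 corneal endothelium markers 3 were called lower and 1, Car2, was called higher, with a median of -1.29. Their part in the result was not tested.

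The average changed most with Dscr-1-/- replicate 1, without which 20 members and 44.6% of all genes were called, and with the Xist-bearing arrays alone, on which 1 was called, Ifi35 (-1.37, adjusted p = 0.0384). Fewer members, and fewer of all genes, were called without either WT array, either ApoE-/- array or double null replicate 1, each of which leaves 1 array in a genotype. Without both arrays of doubtful Apoe level 4 members were called (20.3% of all genes). Xist presence as a term gives the average found without double null replicate 1 and is not a separate check.

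Whether loss of Dscr1 acted differently under the 2 Apoe labels was asked with an interaction term. The limma test called 0 members and 0.00787% of all genes, while 8 members (24.2%) and 7.58% of genes had an unadjusted p under 0.05. The estimate was negative for 32 of 33 members, with a median of -1.03 beside 0.02 over all genes. Ifi35 (-1.04 ± 0.28), Usp18 (-2.17 ± 0.63) and Oas2 (-2.87 ± 0.88) had the lowest p, with adjusted p of 0.547, 0.547 and 0.572. For Ifi35 the estimate is that of its brightest probe set. In Dscr-1-/- against WT, which enters the interaction, only 1 of its 2 other probe sets differed in the same direction. Members passed the adjusted threshold only when Dscr-1-/- replicate 2 was left out, which leaves 1 array in that genotype. More of all genes were called in that fit as well. These contrasts share the WT, ApoE-/-, Dscr-1-/- and double null arrays with the pairwise comparisons and are not separate evidence.

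Upstream parts of the pathway were read from further lists. Interferon ligands, 5 of 9 measured, lay between 0.2 and 11.2 on all arrays and none was bright enough to test. Over all genes 0.0236% were called in ApoE-/- and 11.7% in Dscr-1-/-, and in double null 11.3% were called higher and 8.7% lower, each against WT, and the counts below are read beside these. Counts given without both arrays of doubtful Apoe level are read beside other shares of all genes, 5.51% in Dscr-1-/- and 23.4% in double null, in either direction. Among 12 tested receptors and signal carriers 0 were called in ApoE-/- against WT. In double null against WT 2 were higher and 1 was lower. Socs3, a feedback inhibitor of cytokine receptors that also responds to other cytokines, was higher by 5.01 ± 0.34 (adjusted p = 0.000214), and Ifnar2 was higher by 1.04 ± 0.27 (adjusted p = 0.0313). Ifnlr1, the receptor chain for interferon lambda, was lower by a log2 difference of -1.30 ± 0.37 (adjusted p = 0.0415). In Dscr-1-/- against WT 1 of the 12 was called, Socs3 (4.51 ± 0.34, adjusted p = 0.000452). Without both arrays of doubtful Apoe level 4 were called in double null and 1 in Dscr-1-/-.

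Among 14 tested sensors and adaptors, 0 were called in ApoE-/-, 2 in Dscr-1-/- and 4 in double null against WT (14.3% in Dscr-1-/- and 28.6% in double null). Without both arrays of doubtful Apoe level the counts were 0, 2 and 5. Sting1, the adaptor of the DNA sensor cGAS, was higher in Dscr-1-/- by 2.01 ± 0.36 (adjusted p = 0.0129) and in double null by 1.90 ± 0.36 (adjusted p = 0.00968). Myd88, the Toll-like receptor adaptor, was higher by 0.74 ± 0.15 (adjusted p = 0.0197) and 0.59 ± 0.15 (adjusted p = 0.0294). In double null Irf8, a factor of myeloid cells, was higher by 2.12 ± 0.58 (adjusted p = 0.038) and Irf3, which starts type I interferon transcription, was lower (-0.59 ± 0.17, adjusted p = 0.0439).

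Of other interferon-inducible genes 23 were tested. In ApoE-/- against WT 21 of 23 had a positive difference, with a median of 0.62, and 0 were called. In Dscr-1-/- 17 of 23 had a positive difference, with a median of 0.38, and in double null 13 of 23, with a median of 0.17. In each of these 4 were called higher and 0 lower, and without both arrays of doubtful Apoe level 5 were higher in Dscr-1-/-, while 5 were higher and 2 lower in double null. The genotypes were not compared by a test over this list. Ifitm3, which blocks viral entry, was higher by 2.28 ± 0.23 and 2.05 ± 0.23 (adjusted p = 0.0014 and 0.00134), Samhd1, a deoxynucleotide hydrolase abundant in myeloid cells, by 2.23 ± 0.22 and 2.15 ± 0.22 (adjusted p = 0.00143 and 0.00105), and Isg20, an RNA exonuclease, by 2.01 ± 0.49 and 2.11 ± 0.49 (adjusted p = 0.0374 and 0.0207). In double null against ApoE-/- 3 were lower, Dtx3l (-1.47 ± 0.40), Oas3 (-1.23 ± 0.32) and Parp9 (-1.08 ± 0.28), with adjusted p of 0.039, 0.0328 and 0.0331, and Ifitm3 and Samhd1 were higher. These 5 were 21.7% of the list, close to the 19.5% of all genes called there. Called lower were 13% of the list and 8.6% of all genes. Macrophage and neutrophil marker sums, given above, moved with the higher genes, and their part was not tested.

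Of 9 tested genes of MHC class I presentation, 0 were called in ApoE-/- against WT, 4 were higher in Dscr-1-/-, and 3 were higher and 1 lower in double null. Without both arrays of doubtful Apoe level 0 were called in ApoE-/-, 3 were higher in Dscr-1-/-, and 2 were higher and 1 lower in double null. Nlrc5, the transactivator of class I genes, was higher by 2.73 ± 0.39 (adjusted p = 0.00576) in Dscr-1-/- and by 2.39 ± 0.39 (adjusted p = 0.00576) in double null, and B2m, the class I light chain, by 1.22 ± 0.29 (adjusted p = 0.0363) and 1.42 ± 0.29 (adjusted p = 0.0136). Psme1, a proteasome activator subunit, was lower in double null (-0.94 ± 0.19, adjusted p = 0.0124). Psmb8, Psmb9 and Tap1, the members of the same machinery, were not called in either comparison in the fit over the 4 intact genotypes. In the limma fit of double null and WT alone Psmb8 was called lower (-0.61, adjusted p = 0.0403), where 23.4% of all genes were called.

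Suturing was compared with intact cornea over 7 arrays, with Dscr1 genotype as a term and the Tg array left out. Both intact Dscr-1-/- arrays carried Xist, while the sutured Dscr-1-/- array and all WT arrays did not. In Dscr-1-/- suturing and Xist status thus cannot be told apart. The difference was positive for 30 of 33 members (46.5% of all genes), with a median of 0.61 beside -0.03. The limma test called 0 members and 0.0% of all genes, and 1 member and 9.84% of genes had an unadjusted p under 0.05. Usp18 (0.99 ± 0.36, adjusted p = 0.472), Zbp1 (1.19 ± 0.50, adjusted p = 0.507) and Bst2 (0.87 ± 0.37, adjusted p = 0.511) had the lowest p. For 0 of the 33 members did every sutured array lie above every intact one, against 4.04% of all genes. In the WT arrays alone 1 member was called higher, with 583 genes called in all.

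Sutured WT cornea differed between its days. The single day 7 array was above the single day 5 array for 31 of 33 members (58.1% of all genes) and by more than 1 log2 unit for 10 of them (3.26% of all genes), with a median of 0.74 beside 0.07. There is no replicate for either day, and no test was made. Rsad2 read 18.6 on day 5 and 122 on day 7 (a difference of 2.50), Ifit1 read 78.3 and 290.1 (1.84), and Oas2 read 21.9 and 77.5 (1.67). At the other end Oasl1 read 479.2 and 383.1 (-0.32), Usp18 read 70.7 and 67.6 (-0.06) and Tap1 read 154.3 and 166.6 (0.11). On day 5 the median member stood at -0.03 from the intact WT mean, although macrophage markers summed to 1774.7 and neutrophil markers to 10932.4, against at most 388 and 231 in intact WT. On day 7 these sums were 2690.9 and 2200.5, and lens markers summed to 5532.4, against 367 on day 5, with 7 of 7 more than 1 log2 unit higher. The lower neutrophil sum on day 7 came mostly from S100a8 (4596.4 to 1085.1) and S100a9 (6191.6 to 719.5). Csf3r, Mmp8, Mmp9 and Ngp were higher on day 7, and Cxcr2 and Camp were lower. Their part in the difference between days was not tested.

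On day 5 the sutured Dscr-1-/- array lay above the sutured WT array for 32 of 33 members (56.2% of all genes). By more than 1 log2 unit it was above for 15 (4.11% of all genes) and below for 0 (1.94%), again with 1 array per genotype and no test. Rsad2 read 130.1 against 18.6 (2.59), Cmpk2 read 66 against 9.1 (2.45) and Ifi27l2a read 281.1 against 54.3 (2.30). Stat2 read 13.4 against 15 (-0.13), Tap1 read 170.9 against 154.3 (0.14) and Oasl1 read 553.3 against 479.2 (0.21). Type I members had a median of 1.09 and gamma members one of 0.81, beside 0.05 for all genes. Macrophage markers summed to 3976.6 on this Dscr-1-/- array against 1774.7. Neutrophil markers summed to 1217.1 against 10932.4, a gap that came from S100a8 (642.3 against 4596.4) and S100a9 (390.1 against 6191.6). Of the 7 tested neutrophil markers 4 were higher on the Dscr-1-/- array and 2 were lower, with a median of 0.16. The part of these markers in the differences was not tested.

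On day 7 the sutured array labelled Dscr-1 Tg, on which Rcan1 was not above sutured WT, was compared with sutured WT. The median member differed by -0.15 beside -0.07 for all genes, with 0 members more than 1 log2 unit higher (0.755% of all genes) and 3 more than 1 lower (3.45% of all genes). Those were Rsad2, with 42.8 against 122 (-1.44), Cxcl10, with 5.4 against 16.2 (-1.14), and Igtp, with 39.3 against 82.8 (-1.01). Usp18 (98.3 against 67.6, 0.52), Iigp1 (105.4 against 72.6, 0.52) and Dhx58 (55.6 against 44.1, 0.31) were the highest. Iigp1 was above both intact WT arrays on all 4 sutured arrays, with 64.9 and 118.9 for WT and Dscr-1-/- on day 5.

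The members left out of the test were dim on most arrays. Mx2 lay between 1.5 and 9.8. For Cxcl9, a gamma-induced T cell chemokine, the chosen probe set read 17.9 on Dscr-1-/- replicate 1 and between 0.6 and 5.6 elsewhere. Its other probe set read 72 on that array, 15.1 on the sutured Dscr-1-/- array, 8.2 on double null replicate 2 and at most 1.3 on the rest. Dscr-1-/- replicate 1 was also the highest of the 12 arrays for Cxcl10 (51.8) and for the summed T and NK cell markers (289).

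Parp14, Xaf1 and Oasl2 lay higher on both ApoE-/- arrays, at 244.1 and 270.3 against 144.4 and 130.3 in WT for Parp14, an ADP-ribosyltransferase. Bst2 (tetherin), which holds budding virus at the cell surface, read 64.5 and 68.4 in ApoE-/- against 47.6 and 44.9, and 154.8 on the sutured Dscr-1-/- array, its highest value. Gbp2, a guanylate-binding protein, read 370 and 317.4 in ApoE-/- against 216.1 and 298.8 in WT and had its highest value, 684.3, on the sutured WT day 7 array. Over the 33 members the highest of the 12 arrays was ApoE-/- replicate 2 for 18, of which 14 were type I members.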

How the data were processed

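Total RNA from 12 corneal samples was hybridised to Affymetrix mouse arrays after biotin labelling, per the labels' protocols. The deposited values are probe-set intensities on a linear scale, which the authors scaled per array: the mean of each array's 45101 probe sets, with 2% trimmed from each tail, is 100. The labels used here do not name the software that made them. Symbols came from the platform annotation: 34958 probe sets had 1 symbol, 932 several and 9211 none, and names were updated through the RefSeq table of GRCm38.p6. Probe sets with shared probes (14 members had several probe sets) can read related genes such as the Ifit, Gbp and Oas families together. The brightest probe set by mean log2 intensity stood for a gene. The pseudocount was 3.6, the 20th percentile of all values, and genes at or above the 40th percentile of mean log2 intensity were tested. The intact comparisons used limma 3.58.1 in R 4.3.3 (1 coefficient per genotype over 8 arrays, trended empirical Bayes, Benjamini-Hochberg adjustment over 12711 genes), after checks on simulated data. The number of arrays limits the precision. Groups came from titles and genotypes, and no sample was moved. The members and lists were chosen with earlier results of these data known. Named members are up to 6 past the threshold in each direction, or the 3 with the lowest p, and the 3 highest and lowest in single-array comparisons. Members were otherwise named to cover each role, after their values were seen. Figures used matplotlib 3.10.9 in python 3.11.15. Alternatives were the filter, pseudocount, quantile normalization, the intensity trend, the mean of all probe sets, a replicate block, only the groups compared, the arrays of doubtful Apoe level left out, Xist presence as a term, and each array left out.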

Additional observations from a re-analysis of the deposited data

Results flagged for a closer look

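On day 5 of suturing, 7 members lay below the intact arrays of their genotype in WT and above them in Dscr-1-/-. The sign of the suturing effect thus differed, but in WT it was small, between -0.39 (Oasl2) and -0.03 (Ifih1) log2 units from the intact mean. The Dscr-1-/- baseline is the mean of 2 intact arrays that were far apart on these genes, 1 of them of doubtful Apoe level. Both of these intact arrays carried Xist, while the sutured Dscr-1-/- array and all WT arrays did not. In Dscr-1-/- suturing and Xist status thus cannot be told apart. The suturing effect in Dscr-1-/- minus that in WT was 1.89 for Ifit1, 1.42 for Ifit3, 1.53 for Oasl2, 0.84 for Ifih1, 1.92 for Cmpk2, 1.33 for Ifi47 and 1.02 for Psmb8, in log2 units. The difference was not tested, since each sutured genotype has 1 array. These 7 are 21.2% of the members, close to the 16.7% of all genes tested (2125 genes) that showed the same pattern.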

How the results depend on the processing

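Counts of called members depended on which arrays were used more than on how values were treated. In double null against ApoE-/-, the count of 6 became 14 with only those groups and 15 without the arrays of doubtful Apoe level. In ApoE-/- against WT it became 16 with only those groups, where 203 genes rather than 3 were called. In Dscr-1-/- against WT the count of 2 became 1 with the stricter filter, with no filter and with quantile normalization, 0 with only those groups (743 genes rather than 1482) and 4 without the arrays of doubtful Apoe level (700 genes). In double null against WT the count of 4 became 9 with only those groups and 9 without the doubtful arrays (23.4% of all genes in each). For this contrast and the average, Xist presence as a term gives the difference found without double null replicate 1, so it is not a separate check. The average over Apoe labels gave 4 without the doubtful arrays, 4 with Xist presence and 1 on the arrays with Xist, where 709 genes rather than 4003 were called. For the sutured Tg array, with a pseudocount at the 40th percentile, chosen after seeing the data, 1 member was past 1 log2 unit. In WT arrays alone suturing gave 1. Leaving out single arrays gave 0 to 8 (Dscr-1-/- against WT), 0 to 1 (ApoE-/- against WT), 0 to 12 (double null against WT), 0 to 20 (double null against ApoE-/-), 0 to 1 (double null against Dscr-1-/-), 3 to 20 (average), 0 to 4 (interaction) and 0 to 0 (suturing). Over all settings run, the number of all genes called ranged from 263 to 3849 for Dscr-1-/- against WT, 0 to 203 for ApoE-/- against WT, 691 to 3956 for double null against WT, 516 to 3918 for double null against ApoE-/-, 0 to 107 for double null against Dscr-1-/-, 709 to 5670 for the average, 0 to 50 for the interaction and 0 to 583 for suturing. The replicate numbers did not pair the arrays (correlations -0.046 to 0.074), and the replicate block gave 1, 0, 4, 5, 0, 6 and 0 calls, in the order of that list without suturing. The cause of these shifts was not tested. For the members chosen by the naming rule 0 results reversed, 121 lost and 9 gained significance over these alternatives. Over all members, 71 results that were not called as reported were called under at least 1 alternative, and of these Parp14 in Dscr-1-/- against WT was called in both directions (given above).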
